A study of Drosophila melanogaster with 2 samples.

Results

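Binding of the paired-like homeodomain protein Ptx1 was examined at 10 Malpighian tubule genes, of 13968 protein-coding genes on the named chromosome arms. The genes were taken by name and comprised the regulators ct, tsh, tio and salm, the potassium channels Irk1 and Irk2, and the peptide hormone receptors Dh31-R, Dh44-R1, Dh44-R2 and CapaR. A binding site was assigned to a gene when the summit of its peak, the position of highest signal, lay in the gene body or within 5000 bp on either side. The data came from 2 biological replicates of whole Drosophila melanogaster embryos, 0 to 24 h old, which carried an insertion that expresses Ptx1 fused to enhanced green fluorescent protein (eGFP). Both replicates came from the same strain, labelled Ptx1-GFP, and formed 1 group, so no conditions can be set against each other. Chromatin was sheared to 200 to 800 bp and, per the labels' description, precipitated through the GFP tag, although the antibody label reads Ptx1. The promoter that drives the fusion protein was not stated in the labels. Whole embryos hold many tissues, and peak lists carry no cell types, so the tubule's share of any peak cannot be told apart from that of other tissues. The depth behind the peaks is unknown, and an input or other control was not analysed here.

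The Malpighian tubules are the excretory organs of the fly. Their principal cells drive potassium across the epithelium with the vacuolar proton pump and potassium channels, and their stellate cells carry chloride and water. Cut, the product of ct, is a homeodomain protein needed for tubule formation. Teashirt and Tiptop, the products of tsh and tio, are paralogous zinc finger proteins that act in stellate cells, and Spalt major, the product of salm, is a zinc finger transcription factor. Irk1 and Irk2 are inwardly rectifying potassium channels. Peptides of the DH31, DH44 and Capa families set the rate of fluid secretion through G protein-coupled receptors, encoded by Dh31-R, Dh44-R1, Dh44-R2 and CapaR. Homeodomains of the class of Ptx1 bind the core TAATCC.

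Of the 10 genes, 3 had a summit in the conservative list, the stricter of the series' peak lists after filtering by irreproducible discovery rate (IDR): ct with 5 summits, Irk1 with 4 and Dh31-R with 1. The bases within 50 bp of 8 of these summits, all assigned to ct or Irk1, are shown. The weakest ct summit (58578 bp) is among them for contrast, and the ct summit at 58378 bp is not among them. The highest peak of each gene (ct +9963, Irk1 +7310) was to be shown by rule, and the other windows were added after their values were seen. Each is from the RefSeq copy of the dm6 assembly, plus strand, which is also the strand of both genes, and is named by the distance of its summit in bp from the gene start. Capitals mark the matches to 6 motifs that were searched on both strands.
Summit ct +8701, chrX:7617079-7617179: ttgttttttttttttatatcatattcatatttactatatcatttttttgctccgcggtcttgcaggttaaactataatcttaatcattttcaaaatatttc
Summit ct +9963, chrX:7618341-7618441: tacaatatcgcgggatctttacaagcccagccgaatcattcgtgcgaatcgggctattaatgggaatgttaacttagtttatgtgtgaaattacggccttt
Summit ct +43356, chrX:7651734-7651834: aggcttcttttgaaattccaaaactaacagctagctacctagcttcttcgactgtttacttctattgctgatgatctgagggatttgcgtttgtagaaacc
Summit ct +58578, chrX:7666956-7667056: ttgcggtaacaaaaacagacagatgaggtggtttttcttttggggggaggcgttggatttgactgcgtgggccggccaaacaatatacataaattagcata
Summit Irk1 -618, chr3R:23167649-23167749: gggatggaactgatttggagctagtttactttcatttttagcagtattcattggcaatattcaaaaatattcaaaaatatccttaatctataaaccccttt
Summit Irk1 +5184, chr3R:23173451-23173551: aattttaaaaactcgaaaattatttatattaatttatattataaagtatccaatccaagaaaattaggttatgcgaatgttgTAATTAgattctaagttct
Summit Irk1 +7310, chr3R:23175577-23175677: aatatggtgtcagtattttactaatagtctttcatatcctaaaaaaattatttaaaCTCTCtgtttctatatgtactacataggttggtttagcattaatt
Summit Irk1 +21769, chr3R:23190036-23190136: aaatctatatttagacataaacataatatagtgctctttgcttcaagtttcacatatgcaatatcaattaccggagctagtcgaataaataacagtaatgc
None of the 10 conservative summit windows of these genes held TAATCC, the weaker bicoid-type core TAAGCC, the DNA replication-related element TATCGATA or Motif 1, GGTCACAC. Those were in 3.81%, 4.37%, 1.42% and 0.733% of windows of the same length at all 6824 conservative summits on the named arms. The core TAATTA, bound by homeodomains of the Antennapedia type, was in 1 window (Irk1 +5184, 32 bp after the summit), against 10.7% of all windows. GAGAG, the GAGA factor element, was in 1 window (Irk1 +7310, on the minus strand), against 8.76% of all windows. The 2 matches lay in different windows. With the windows widened to 100 bp either side, both bicoid-type cores and Motif 1 were still in 0 of the 10, against 6.92%, 7.81% and 1.55% of all windows. The DNA replication-related element was then in 1 of the 10 (2.73% of all), GAGAG in 3 (20.4%) and TAATTA in 2 (18.3%). The letters were searched in these windows alone. AT-rich sequence was common to most of the windows: GC content ranged from 19.8% to 44.6% with a median of 28.7% over the 10 summits, against a median of 31.7% at all conservative summits.

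The 3 bound genes of 10 compare with 56.6% of all coding genes that had a conservative summit in the same kind of window. This order depended on the margin. In the gene body alone 2 of the 10 had a summit, against 14.9% of coding genes, and within 10000 bp 7 of the 10 did, against 71.4%. Longer windows catch more summits, so the genes were also read by window length. Of the 5 genes with windows of 12 to 20 kb (tsh, tio, Irk2, Dh44-R1 and CapaR), 0 had one, against 61.6% of the 5451 coding genes of that class. Of the 4 with windows of 20 to 50 kb, 2 did (Irk1 and Dh31-R, not salm or Dh44-R2), against 72.6% of 1517. The window of ct exceeded 50 kb, a class in which 78.2% of 468 genes had a summit. Over the summed windows of the 10 genes, 272001 bp, there were 0.368 conservative summits per 10 kb, against 0.671 per 10 kb over the windows of all coding genes. In the latter value, summits in overlapping windows were counted more than once. Over the arms there were 4.96 per 100 kb. By class of window length the value fell from 0.798 per 10 kb (12 to 20 kb) to 0.406 (over 50 kb). These are counts of few genes, chosen by name, with no test of the difference.

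**Figure D1:**
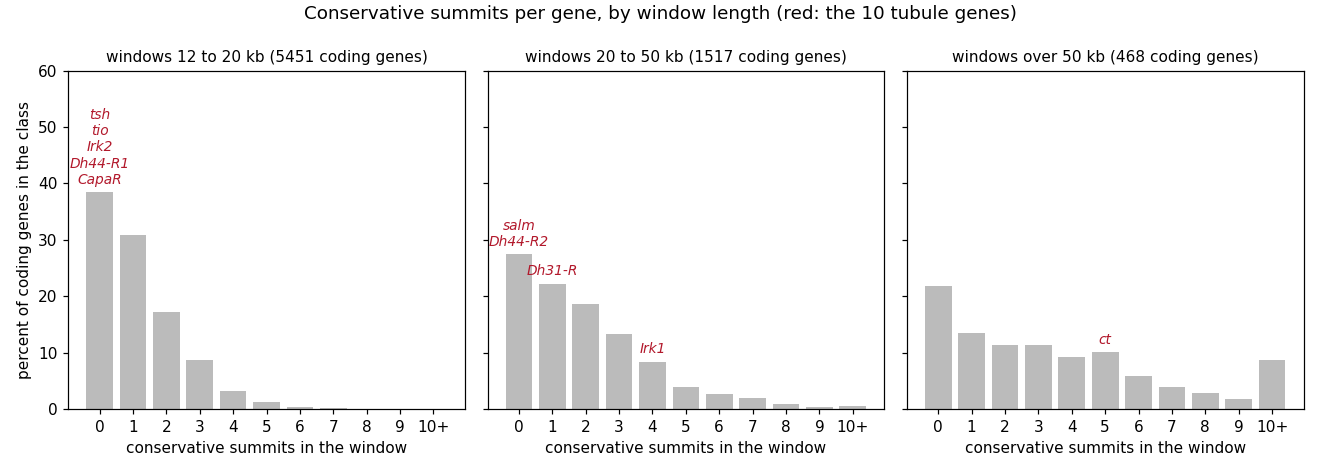
Share of coding genes (percent, vertical axis) with each number of conservative summits in the gene body or within 5000 bp (horizontal axis), in 3 classes of window length. The 10 tubule genes are written in red over the bar for their own number: 7 of them stand at 0, while Irk1 with 4 and ct with 5 lie above the medians of 2 and 3 of their classes.

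Close to a transcription start, 2 of the 10 genes were bound. Dh31-R and Irk1 had a conservative summit within 1000 bp of an annotated start, against 26.7% of all coding genes. The replicates gave nearly the same set of genes when each was read alone. In replicate 1's own thresholded list 3 of the 10 genes had a summit (9 summits in all), against 51.4% of coding genes. In replicate 2's own list 4 of the 10 had one (10 summits), against 48.7%. Both lists held ct, Irk1 and Dh31-R, and replicate 2's list added tio.

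The conservative summits of the regulator ct lay inside its introns, and none was within 1000 bp of its starts. The gene (FBgn0004198) spans 70432 bp on X, 7608428 to 7678859 on dm6, plus strand, with 3 annotated starts. Its 5 conservative summits all lay in introns, and the nearest of them was 7981 bp from an annotated ct start. A pair of sites lay in the first intron, which is up to 36241 bp long. The stronger of these, at 9963 bp from the gene start (7618295 to 7618477), had a strength score of 251.1 and rank 1508 of the 6840 conservative peaks. The score is the authors' own value per peak, has no stated unit and serves only to rank peaks within a list. The other, at 8701 bp (7616944 to 7617313), scored 178.3 and ranked 2339.

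The remaining 3 ct summits lay farther into the gene. The site at 43356 bp (7651699 to 7651871, intron 2 or 3 by transcript) scored 237.7 and ranked 1635. Near the 3' end, in intron 5 or 6, a peak at 58378 bp (7666621 to 7666990) scored 108.3 and ranked 4113. The last peak, at 58578 bp (7666821 to 7667190), overlapped it and scored only 4.96, rank 6757. Every one of the 5 had the highest scaled score, 1000, a transformed IDR that the authors give beside the strength. So did 5982 of the 6840 conservative peaks, so this value does not set the ct sites apart. The peak at 58578 bp had a −log10 q value of 0.0238, against 2.06 for the peak it overlapped. Of the 468 coding genes with windows over 50 kb, 32.9% had at least as many conservative summits as ct, and the median of that class was 3.

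Both replicates held the 4 stronger ct sites. At 9963 bp the score was 121 in replicate 1 and 126 in replicate 2, with the summits 0 and 16 bp from the conservative one. At 43356 bp it was 133 in replicate 1 and 106 in replicate 2. At 8701 bp the scores were 77.8 in replicate 1 and 95.0 in replicate 2, and at 58378 bp they were 53.7 and 62.7, so the site at 58378 bp was the lowest of the 4 in both lists. The weak summit at 58578 bp had no ranked summit within 100 bp in either replicate's own list.

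**Figure D2:**
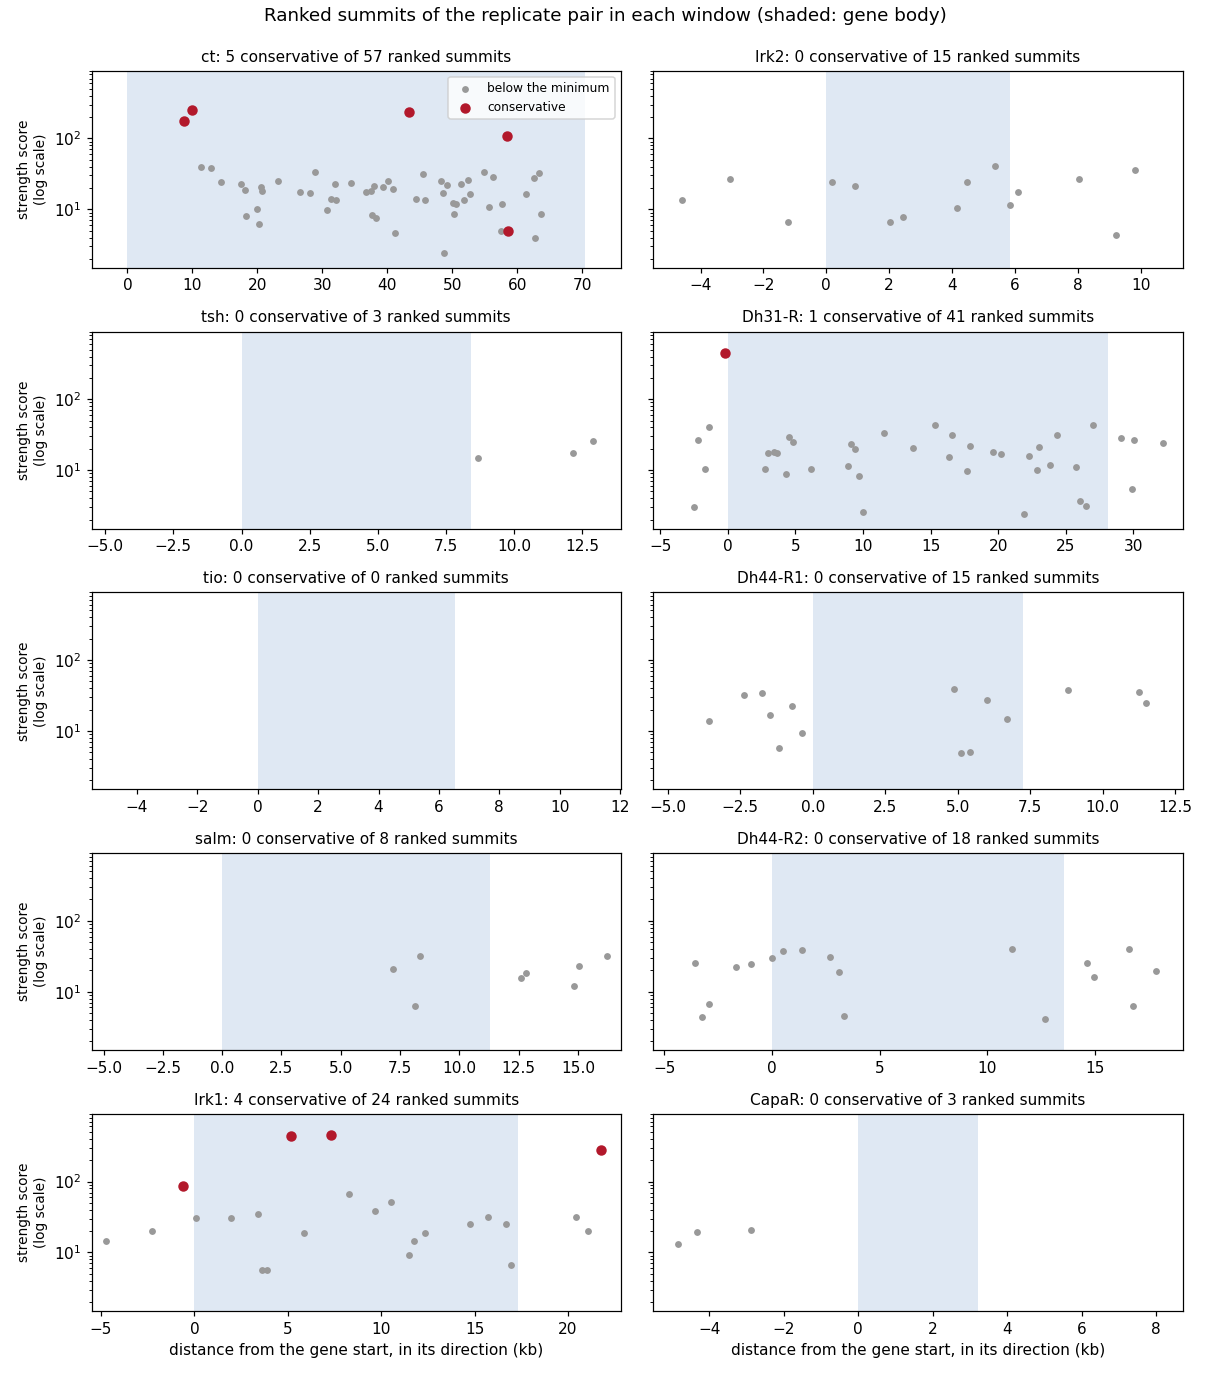
Strength score (vertical axis, log scale) of every ranked summit of the replicate pair against its distance from the gene start in kb (horizontal axis), with 1 panel per gene and the gene body shaded. Red points are in the conservative list and grey points are below its minimum: ct has red points only inside the gene, Dh31-R has 1 just before its start, and 7 panels have none.

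The stretch upstream of ct, chosen for description after its values were seen, carried further sites. In the 100000 bp before the ct start there were 7 conservative summits, against 6.02 per 100 kb over X and 4.96 over all arms. The closest had its summit at -29250 bp from the ct start, and their scores ran from 67.4 to 125, below the 3 highest ct sites and overlapping the range of the other ct sites. Each had an annotated start of another gene nearer than that of ct, belonging to CG11369, CG32719, CG32720 or CG43138, and 3 of the 7 lay inside CG32719.

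The potassium channel gene Irk1 held 4 conservative summits, and the related gene Irk2 held none. Irk1 (FBgn0265042) spans 17326 bp on 3R, 23168317 to 23185642, plus strand, with 7 annotated starts. The highest peak, at 7310 bp from the gene start (23175514 to 23175762, in an intron), scored 456.9 and ranked 579. The next, at 5184 bp (23173374 to 23173612, in an intron), scored 434.4 and ranked 632. That summit lay 372 bp upstream of an internal Irk1 start, which is also the start of the overlapping gene CG46310, so these lists cannot tell the pair of genes apart there. The highest peak lay 1754 bp downstream of the same start, inside an intron of CG46310 as well, so the same holds for it.

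The other Irk1 summits lay outside the gene body. One at -618 bp, upstream of the first start (23167514 to 23167883) scored 86.4 and ranked 5101. The other, at 21769 bp (23189992 to 23190174), scored 278.6 and ranked 1286. It lay past the 3' end of Irk1, in an intron of the neighbouring gene cnc and 333 bp downstream of a cnc start, and so entered the count through the 5000 bp margin. Of the 1517 coding genes in the same class of window length, 18.5% had at least 4 conservative summits.

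Of the 4 sites, 3 passed in both replicates. At 7310 bp the score was 275 in replicate 1 and 177 in replicate 2, and at 5184 bp it was 248 in replicate 1 and 184 in replicate 2. At 21769 bp the scores were 138 in replicate 1 and 141 in replicate 2. The top 2 changed places between the replicates, and the site at 21769 bp followed them in both. The upstream site at -618 bp scored 50.1 in replicate 1's thresholded list, while in replicate 2 it appeared only in the ranked list, with a score of 35.7 and a scaled score of 815, below the 830 that every thresholded peak reached.

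Irk2 (FBgn0039081, 3R, 23513617 to 23519445, minus strand) had no conservative summit and no thresholded summit in either replicate. Its window held 15 ranked summits of the replicate pair, and the highest scored 41.3, rank 14814 of 91374, in a coding exon. The nearest conservative summit was 6779 bp upstream, 1181 bp downstream of a start of CG10175. Irk1 held 24 ranked summits, 20 of them below the minimum, so ranked summits were present at both channel genes while passing ones were at Irk1.

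Among the receptors, Dh31-R was bound at its promoter and the other 3 had no conservative summit. Dh31-R (FBgn0052843) spans 28130 bp on 2R, 13267798 to 13295927, minus strand, with 1 annotated start. Its single conservative peak (13296006 to 13296294) had the summit 218 bp upstream of that start, in no annotated gene, with a score of 453.8 and rank 587. The nearest start of another coding gene, that of CG4734, was 2322 bp away. The score was 239 in replicate 1 (rank 666 of 5480) and 207 in replicate 2 (rank 548 of 4825), with the summits 3 and 0 bp from the conservative one. In the conservative list and in replicate 1 it stood below the highest Irk1 site, while in replicate 2 it stood above both of the highest Irk1 sites, so the order of the 2 genes was not stable. The other 40 ranked summits in its window lay below the minimum, the highest of them at 43.1.

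The receptors for DH44 and Capa had ranked summits that did not pass. Dh44-R1 (FBgn0033932, 2R, 14378097 to 14385359) had 15, the highest at 39.1 in an intron. Dh44-R2 (FBgn0033744, 2R, 12474424 to 12487986) had 18, the highest at 39.4. CapaR (FBgn0037100, 3L, 21558974 to 21562181, minus strand) had 3, the highest at 20.5, all of them upstream of its start. Their nearest conservative summits lay 15163 bp, 5943 bp and 6851 bp from the gene bodies, in that order, and 114 to 170 bp from starts of other genes, Tfb1, CG8545 and CRIF.

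**Figure D3:**
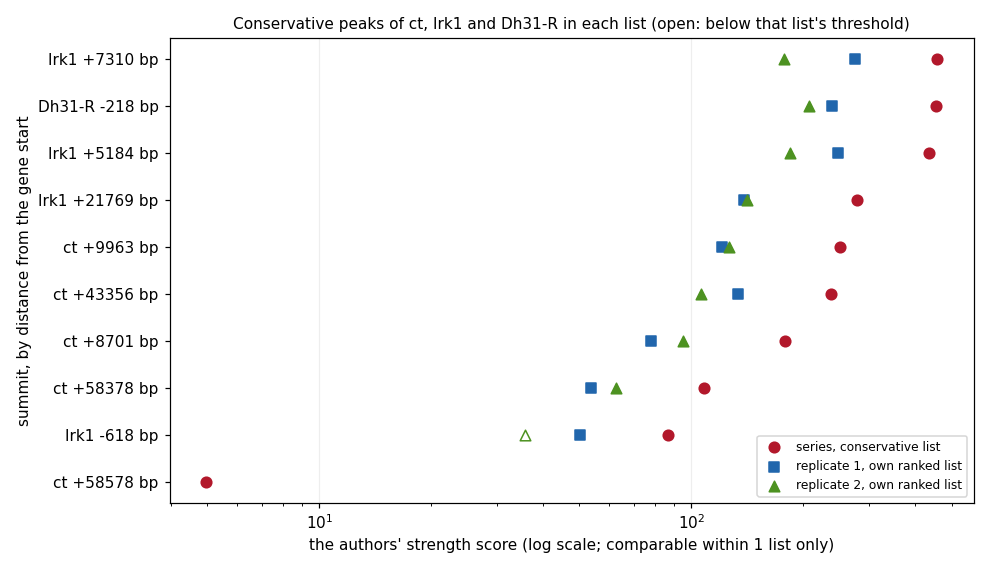
The authors' strength score (horizontal axis, log scale) of the 10 conservative peaks, by gene and distance from the gene start (vertical axis), in the conservative list (red), in replicate 1 (blue) and in replicate 2 (green). Scores compare within 1 list only; the open green point is the Irk1 site at -618 bp, which did not pass in replicate 2, and the weakest ct summit has no replicate point.

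The zinc finger genes tsh, tio and salm were unbound in the conservative list. The window of tsh (FBgn0003866, 2L, 21828593 to 21837011, plus strand) held 3 ranked summits of the replicate pair, all past the 3' end of the gene and none above a score of 25.6. The nearest conservative summit was 9520 bp past its end, at 17938 bp from the tsh start, with a score of 82.3, and no coding gene had a nearer start than tsh. The window of salm (FBgn0261648, 2L, 11434311 to 11445614, minus strand) held 8 ranked summits, with the highest at 32.2 in a coding exon. Its nearest conservative summit was 16605 bp past its end, with a score of 94.5, and again no coding start was nearer than that of salm. The 3 ranked summits of tsh and the 8 of salm lay at least 7180 bp from the gene starts.

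The paralogue tio (FBgn0028979, 2L, 22019208 to 22025734, plus strand) stood apart from the other 9 genes. It had no ranked summit of the replicate pair, while 92.8% of coding genes had at least 1 such summit in their window and the other 9 had 3 to 57. The nearest conservative summit was 104451 bp away, 43 bp from the start of CycK, and 1.65% of coding genes were farther from one. The replicates differed here: replicate 1 had 0 ranked summits in the window and replicate 2 had 4. For tsh the numbers were 0 in replicate 1 and 6 in replicate 2, and for salm they were 3 and 9, although over all arms replicate 1 had 67861 ranked peaks and replicate 2 had 44344. Peaks were sparse over the region that holds tsh and tio. From 500000 bp before tsh to 500000 bp after tio there were 15.2 ranked and 0.919 conservative summits per 100 kb, against 65.7 and 4.96 over all arms. The part of this sparseness in the missing summits of tsh and tio was not tested, and how much of the region reads can be placed on is unknown.

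**Figure D4:**
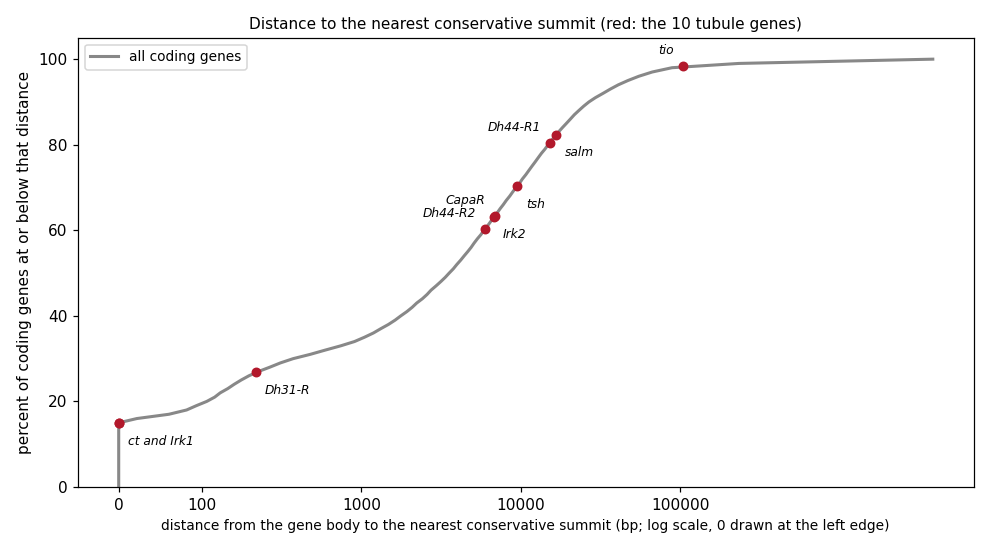
Share of all coding genes (percent, vertical axis) whose body lies within a given distance in bp (horizontal axis, log scale) of a conservative summit, with the 10 tubule genes as red points on the curve. ct and Irk1 hold a summit in the gene body, Dh31-R is 218 bp from one, and tio at 104451 bp is the farthest of the 10.

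The 10 windows held 184 ranked summits of the replicate pair, and 174 were below the minimum. Of the 10 that passed, 7 lay in introns of the gene and 3 outside it, and 0 lay in exons. Of the 7 in introns, 5 were at ct. Of the 174, 87 lay in introns, 52 outside the gene, 29 in coding exons and 3 each in 5' and 3' UTRs. Places were not counted over all peaks, so these few summits give no measure of a preference for introns. GC content around the summits had a median of 28.7% for those that passed and 46.5% for those that did not, against 31.7% and 47.5% over all peaks of the same kinds, so this gap was shared by the whole list. The highest score below the minimum was 66.8, at Irk1, and the lowest above it was 86.4 when the overlapping ct summit is set aside. Passing and score were derived from the same peaks, so this gap is a description.

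Of the 10 conservative summits, 8 had a thresholded summit within 100 bp in both replicates, against 56.5% of the 6824 conservative peaks on the arms. The exceptions were the weak ct summit and the Irk1 site at -618 bp. All of the 8 but the ct peak at 58378 bp scored above 128, the median of the conservative list. The comparison was not matched for score. The 6 highest of the 10 peaks were narrower than 370 bp, the median width of conservative peaks, and the other 4 were exactly 370 bp wide. Over the whole list the 2002 peaks narrower than that had a median score of 310, and the 4750 of that width had 100.

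A wider list of 74 genes, chosen by name as related to the tubules, was sorted by role. Whether each gene is active in the tubules was not examined. In all, 47 of the 74 had a conservative summit in the gene body or within 5000 bp, against 56.6% of all coding genes, and 26 had one within 1000 bp of a start, against 26.7%. In the gene body alone 23 of the 74 had one, against 14.9%. Most of the 74 windows were longer than 12 kb, while 6532 of the 13968 coding genes had windows under 12 kb. In the longer classes 61.6% (12 to 20 kb), 72.6% (20 to 50 kb) and 78.2% (over 50 kb) of coding genes had a summit. The 74 were not read by window length, so these comparisons are not matched for it. Among further regulators 19 of 24 had a summit within 5000 bp, against 56.6% of all coding genes. Their median was 2 summits per gene, against 1 over all coding genes. By window length the median of coding genes was 1 (12 to 20 kb), 2 (20 to 50 kb) and 3 (over 50 kb). The strongest were at bowl (score 869), which encodes an odd-skipped family zinc finger protein, and at numb (790), the Notch antagonist. The secreted EGF receptor inhibitor gene aos followed with 772 and the receptor gene N with 503. Kr, byn, hkb, dac and salr, the paralogue of salm, had none.

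Among genes of ion and water transport 19 of 27 had a summit, against 56.6% of all coding genes and, as above, with no match for window length. KCNQ, a voltage-gated potassium channel gene, had the highest (1227), followed by Irk3, a further inward rectifier gene, with 733. The kinase gene fray, which acts on cation-chloride cotransporters, reached 596 and the bestrophin chloride channel gene Best1 reached 571. The Irk3 summit lay outside the gene body, 5034 bp from its start, so of the 3 inward rectifier genes Irk1 and Irk3 had a conservative summit in the window and Irk2 did not. Eglp4 lies inside the span of Eglp2, and these entomoglyceroporin genes shared 1 peak with a score of 119.

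Among hormone and further receptor genes 5 of 12 had a summit, against 56.6% of all coding genes. These included the ion transport peptide gene ITP (810), the leucokinin receptor gene Lkr (283), sNPF (148), and Tdc1 (136), a tyrosine decarboxylase gene. The genes of the ligands for the receptors described above, Dh31, Dh44 and Capa, had none, although the receptor gene Dh31-R did. Of 11 genes for organic solutes and purines 4 had a summit, against the same 56.6%. They included the eye pigment transporter gene w (510) and the urate oxidase gene Uro (196). The xanthine dehydrogenase gene ry (95.6) and the transporter gene Mrp4 (63.2) were the others. The highest summits of w, Uro and ry lay past the 3' end of the gene, at 9686, 3103 and 6720 bp from its start. Those of Lkr and Tdc1 did too, at 17223 and 6911 bp. Which gene starts lie nearest to these summits was not looked up, so they may belong to neighbouring genes. Window lengths differ between roles, and differences between roles were not tested.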

How the data were processed

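Peak lists from 2 embryo replicates were read on dm6; the genes are Ensembl 115 annotations of the same assembly. Per the deposited readme files, peaks were ranked and thresholded by IDR, for each replicate and for both together, and the thresholded lists had 1 further parent file whose content is not given. The sources used here name neither aligner nor caller. The authors' deposited lists give each peak a strength score, a scaled IDR score and a −log10 q value. The scores have no stated unit, and read depth is unknown. Summits were computed as start plus offset and are 1-based. The 10 genes and the wider list were chosen with earlier results of these data known. Of the wider list 74 names matched a coding gene and 3 did not. Named genes are the 10, with all their conservative peaks, and up to 4 per role by highest score; genes named beyond these were chosen after their values were seen. Values of each replicate came from its own lists. Counts are described beside those of all coding genes, with no test, since there is 1 group. The reading and ranking of peaks and the placing of summits within genes were tested on simulated data, while the counting of summits per gene was not. Python 3.11.15, numpy 2.4.6 and matplotlib 3.10.9 were used.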

Additional observations from a re-analysis of the deposited data

Results flagged for a closer look

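Sites past a threshold outside the conservative list occurred at a pair of the genes. In replicate 2's own thresholded list tio had a summit 5401 bp from its start, in the 3' UTR (2L, 22024439 to 22024778), with a score of 42.8 and a scaled score of 834, just above the 830 of the weakest thresholded peaks. Replicate 1 and the replicate pair had no ranked summit within 100 bp of it.

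An Irk1 intron held a site 8298 bp from the gene start (3R, 23176430 to 23176799) that passed in the other thresholded list of the series with a score of 66.8 and a scaled score of 966. Replicate 2's own thresholded list held it too, with a score of 47.6 and a scaled score of 1000. In replicate 1 it was ranked with a score of 23.9 and a scaled score of 54, and in the ranked list of the replicate pair its scaled score was 192. No group has the 4 samples that a check for outlying samples needs.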

How the results depend on the processing

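The 3 bound genes became 7 when the window was widened to 10000 bp (71.4% of coding genes), which adds tsh, Irk2, Dh44-R2 and CapaR through the neighbouring summits given above. In the gene body alone they were 2 (14.9% of coding genes) and in replicate 2's list 4, and under the other alternatives for peak list, threshold, window and overlap the count was 3. The 10 conservative summits ranged from 7 (gene body alone) to 15 (10000 bp); they were 10 without replicate 1 and 9 without replicate 2, and 9 with overlapping peaks merged, a choice made after seeing the data. Genes bound within 1000 bp of a start were 2 under every alternative tried. Summits shared by both replicates were 8 or 9. Of the wider list 47 genes were bound, but 23 when the gene body alone was counted and 62 within 10000 bp (71.4% of coding genes). Within 1000 bp of the gene body they were 32, a margin for which no share of coding genes was counted. In replicate 1's own list they were 41 (51.4% of coding genes) and in replicate 2's 46 (48.7%). No paired analysis was possible because the replicates form 1 group. Ranking by q value left the highest peaks of Irk1 and Dh31-R at 579 and 587 and made the 43356 bp site the highest of ct, at 1534. The number of reads behind each peak is unknown, so a gene without a summit was not shown to be unbound, and 2 replicates give little measure of spread.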

Other observations

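The weak ct summit at 58578 bp belongs to a small class of peaks. In the conservative list 176 peaks on the arms had a strength score under 10, and 175 of them overlapped another conservative peak, as this one does. Counts of summits per gene can therefore include such peaks beside a stronger one.

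Outside the windows, the 100000 bp upstream of tsh and of Dh44-R2 each held a stronger site than any assigned to the 10 genes. In the same stretch of the other genes no site scored above 454. One at -33651 bp from the tsh start scored 957 and ranked 134, and lay inside CG31612, 505 bp downstream of a start of that gene. One at -38484 bp from the Dh44-R2 start scored 1072 and ranked 103, and its summit lay -104 bp from a start of DUBAI. The highest peak assigned to any of the 10 genes scored 456.9. These stretches were chosen after the values were seen.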
